A study of Mus musculus with 6 samples.

Results

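The genes described here are 40 collagen, matrix and fibroblast genes, taken by name from a table of 34866 gene rows. All 40 had a row, and 39 passed the filter on low counts. Of the 40, 26 encode interstitial matrix, 8 encode basement membrane and 6 are a collagen chaperone and markers of fibroblasts. RNA came from the mucosa of the gastric antrum of mice, with 3 libraries of genotype Muc6 -/-, called knockout 1 to 3, and 3 of genotype Muc6 +/+, called wild type 1 to 3. Muc6 encodes the gel-forming mucin of antral glands, and the study asks how it relates to gastric carcinogenesis. Strain, age, sex and how the allele was made were not given in the sources used here. The labels also do not say that the libraries of a genotype came from separate mice. All p-values therefore measure the spread between these libraries, which may be technical.

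Connective tissue of the stomach wall holds fibroblasts, which secrete fibrillar collagens, small proteoglycans and elastic fibre proteins into the interstitial space. Basement membranes are thin sheets under the epithelium and around vessels and muscle cells, built from collagen IV, laminin, nidogen and heparan sulfate proteoglycans. Epithelial, endothelial and muscle cells also make basement membrane proteins, so these genes are less tied to fibroblasts than the fibrillar collagens are.

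Muc6 had 1, 0 and 0 counts in knockout 1, 2 and 3, against 7295, 7158 and 8795 counts in wild type 1, 2 and 3. Total counts per library were 19839799 to 20673709 in the knockout and 19942351 to 21354029 in wild type, so depth was alike. The Y-linked gene Ddx3y was at 39.2 to 41.1 CPM in the knockout libraries and at 0.0579 to 0.326 CPM in the wild-type libraries, and sex and genotype cannot be told apart. CPM are counts per 1000000 of the composition-scaled library size. In the edgeR test at a false discovery rate of 0.05, 2699 of 14017 genes were higher and 2687 lower in the knockout. Scaling to total counts put the median log2 fold change of all tested genes at 0.43, against 0.02, and gave 5718 higher and 1095 lower, so directions here are relative to the composition-scaled median.

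Wild type 1 stood apart for the matrix genes and carried little of them. The 40 genes took 0.200%, 0.251% and 0.234% of counts in knockout 1, 2 and 3, against 0.0847%, 0.184% and 0.237% in wild type 1, 2 and 3. Wild type 1 had the lowest level of all 6 libraries for 34 of the 39 tested members. Its level was a median of 9.91% of the mean of wild type 2 and 3, and it was under 25% of that mean for 31 members. Above 50% of that mean were Gsn, Fbln1, Lamc1, Lox and Col18a1. Knockout 1 was at a median of 79.6% of the mean of knockout 2 and 3. Results are therefore given with all libraries and without wild type 1. In bulk tissue, fewer cells of a type and less RNA per cell cannot be told apart.

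**Figure D1:**
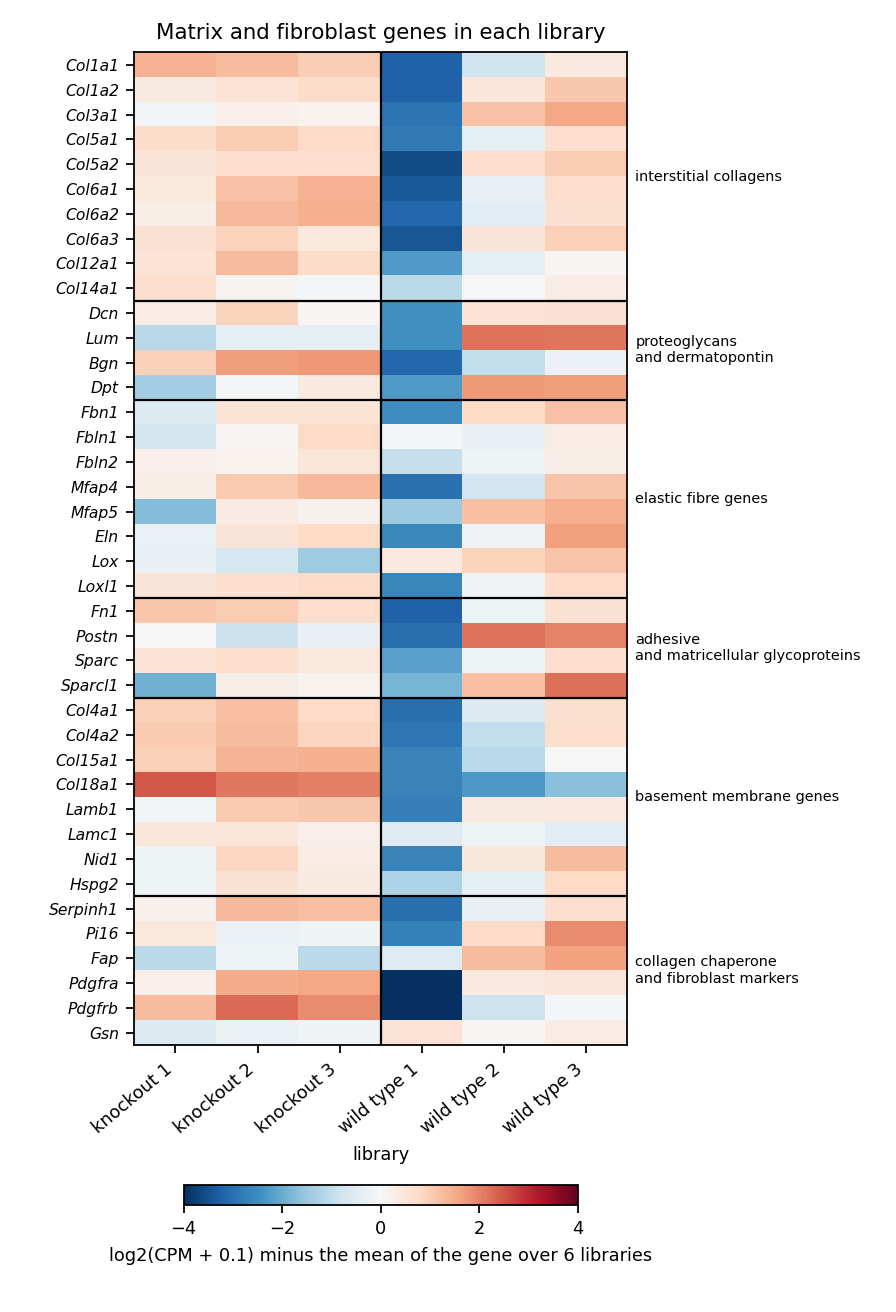
Heat map of the 40 genes (rows, grouped by role) in the 6 libraries (columns). Colour is log2(CPM + 0.1) minus the mean of the gene over all libraries, with values below -4 drawn in the darkest blue. The column of wild type 1 is blue for nearly every gene, with Fbln1, Lox and Gsn as exceptions, and Col18a1 is high in all 3 knockout libraries.

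Markers of other cell types also differed between libraries. Counts called are to be read against all tested genes, of which 19.3% were higher and 19.2% lower. These shares were 20.9% and 20.4% without wild type 1, and 23.7% and 24.3% without both libraries numbered 1. Over 12 smooth muscle markers, the summed level was 103, 1231 and 860 CPM in knockout 1, 2 and 3, against 283, 2070 and 4249 CPM in wild type 1, 2 and 3. None of the 12 was called by edgeR, by DESeq2 or by limma-voom, and none had an unadjusted p under 0.05. Without both libraries numbered 1, edgeR called 4 of the 12 lower. The 14 endothelial markers summed to 95.2 to 151.5 CPM in the knockout and 24.7 to 56.7 CPM in wild type, and 5 were higher and 2 lower. Of them, 8 were higher and 2 lower without wild type 1, and 11 were higher and 2 lower without both libraries numbered 1. Cdh5, the endothelial cadherin gene, had no counts in wild type 1. Pericyte markers summed to 44.1 to 158.7 CPM in the knockout and 46.8 to 416 CPM in wild type, and 1 of 6 tested was higher, with 2 higher and 1 lower without both libraries numbered 1. Rgs5 alone gave 229.8 of the mean wild-type sum of 258.9 CPM. Over the 6 tested, the median log2 fold change was 0.24, with 4 above 0 and 2 below. Immune cell markers summed to 140.7 to 206.5 CPM in the knockout and 15.7 to 91.9 CPM in wild type, and 2 of 9 tested were higher, with 4 of 9 without both libraries numbered 1. Adipocyte markers summed to 31.4 to 46.0 CPM in the knockout and 57.4 to 116.5 CPM in wild type, with 1 of 4 tested lower, or 3 of 5 without both libraries numbered 1. Adipoq, the adiponectin gene, had 0, 18 and 0 counts in knockout 1, 2 and 3. In wild type 1, 2 and 3 it had 2, 192 and 86 counts, and it was not called over all libraries. Mesothelial markers summed to 3.79 to 7.38 CPM in the knockout and 2.47 to 7.38 CPM in wild type, with 1 of 3 tested higher and 1 lower. Enteric glia markers summed to 16.4 to 19.1 CPM in the knockout and 8.90 to 15.6 CPM in wild type, with 1 of 5 tested higher. Antral epithelium markers summed to 49360 to 60510 CPM in the knockout and 171100 to 198800 CPM in wild type, with 2 of 12 higher and 7 lower. Gkn1, Gkn2 and Tff1, all called lower, made up most of this sum. The 2 higher were Epcam, at a mean of 736.1 against 329.5 CPM, and Krt18, at 1355 against 683.1 CPM. Cdh1, Krt19 and Sox2 were not called. The part of these differences in the results below was not tested.

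**Figure D2:**
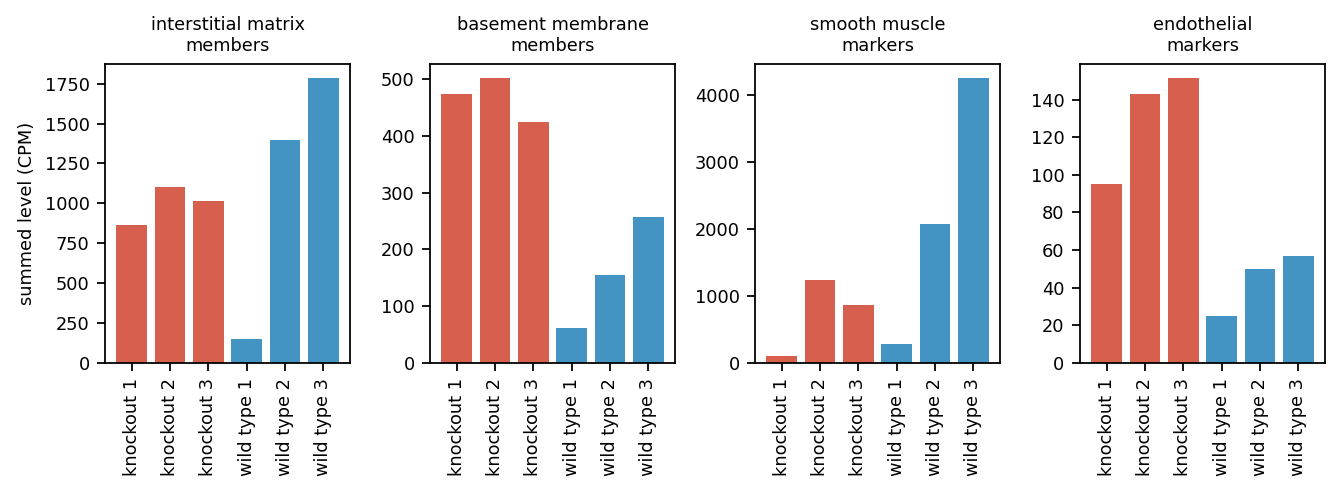
Bars show the summed level in CPM (axis from 0) of the 26 interstitial and 8 basement membrane genes and of 12 smooth muscle and 14 endothelial markers in each library, knockout at left. Wild type 1 is the lowest wild-type library in all 4 panels, and knockout 1 is low for smooth muscle at 103 CPM.

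Over all 6 libraries, 4 of the 39 tested members rose and 2 fell, and 33 did not pass. The higher ones were Col18a1, Col15a1, Lamc1 and Bgn, and the lower ones were Lox and Gsn. The 6 make 15.4% of the tested members, where 38.4% of all tested genes were called, 19.3% as higher and 19.2% as lower. Scaled to total counts instead, 6 members were called higher and 1 lower. The libraries of the genotypes did not overlap for 11 members above and 2 below wild type, against 28.2% above and 26.6% below, or 54.8% in either direction, of all tested genes. Without wild type 1, 7 members were called higher and 6 lower, where 20.9% of all genes in that fit were higher, 20.4% lower and 41.3% either. All 6 members called with every library were among these 13. Leaving out knockout 1 as well as wild type 1 gave 8 higher and 10 lower, against 23.7% higher, 24.3% lower and 48% either over all genes, and again held the 6.

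**Figure D3:**
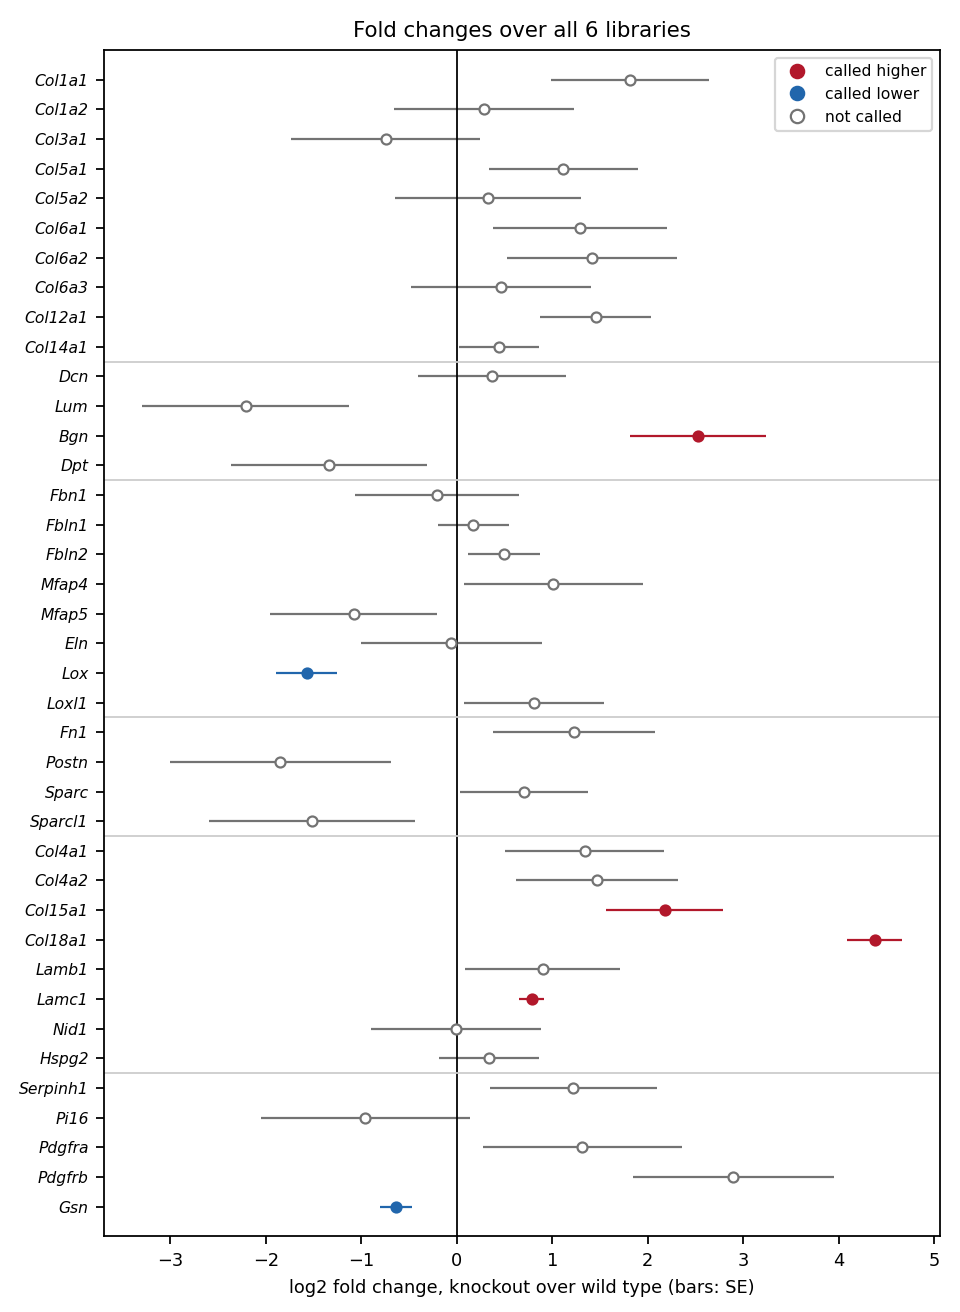
Points give the knockout over wild-type log2 fold change of each of the 39 tested members, with bars for the SE, grouped by role from interstitial collagens at the top to markers at the bottom. Only Col18a1, Lamc1, Col15a1 and Bgn are filled red and Lox and Gsn filled blue as called, and the other 33 are open.

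Basement membrane genes held 3 of the 4 members that rose. Of the 8, 3 were higher, where 19.3% of all tested genes were, none was lower in any of the 17 alternative fits, and 5 did not pass. The median log2 fold change was 1.12, against 0.41 for the 26 interstitial genes, of which 1 rose and 1 fell, and 0.02 for all tested genes. Without wild type 1 the medians were 0.77 for basement membrane and 0.01 for interstitial genes. Further genes of these classes, given below, had medians of 0.78 (basement membrane) and 0.76 (interstitial) over all libraries, so they did not show this contrast. Without wild type 1 their medians were 0.73 and 0.31. The differences between these lists were not tested. The summed level of the 8 genes was 473.6, 502.1 and 425.3 CPM in knockout 1, 2 and 3, against 60.7, 155.5 and 257.8 CPM in wild type 1, 2 and 3. Leaving Col18a1 out of the sum gave 256.6, 332.6 and 268.6 CPM in the knockout and 54.7, 147.6 and 245.6 CPM in wild type. The groups did not overlap in either sum, and without Col18a1 wild type 3 came close to knockout 1.

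The interstitial genes, by contrast, summed to 866.5, 1104 and 1015 CPM in knockout 1, 2 and 3, against 150, 1399 and 1785 CPM in wild type 1, 2 and 3. Wild type 2 and 3 lay above the knockout libraries and wild type 1 far below them. The summed interstitial level was 1.83, 2.20 and 2.39 times the basement membrane level in knockout 1, 2 and 3, and 2.47, 8.99 and 6.92 times in wild type 1, 2 and 3. With Col18a1 left out, the ratio was 3.38, 3.32 and 3.78 in the knockout and 2.74, 9.48 and 7.27 in wild type. Wild type 1 then lay below the knockout libraries, so the lower ratio in the knockout was not seen against that library. These ratios are descriptions of the listed genes, with no test.

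Col18a1 changed most. It encodes collagen XVIII, a basement membrane collagen that carries heparan sulfate and whose C-terminal fragment is endostatin. The gene (ENSMUSG00000001435.15) lies on the minus strand at chr10:77052178-77166548 in mm10. It was at 217, 169.5 and 156.7 CPM in knockout 1, 2 and 3, against 6.08, 7.92 and 12.2 CPM in wild type 1, 2 and 3. All knockout libraries were far above all wild-type libraries, and wild type 1 lay close to wild type 2. The log2 fold change was 4.37 (SE 0.29, edgeR adjusted p = 0.000269), and it was 4.16 without wild type 1. Across the 17 alternative fits it ranged from 3.94 to 4.79 and was called in each. Col18a1 made up 33.75% to 45.8% of the summed basement membrane level in the knockout and 4.74% to 10.01% in wild type. Per kb of exon, its level was 25.8 CPM in the knockout and 1.25 CPM in wild type.

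Lamc1 encodes the gamma 1 chain shared by most laminins (ENSMUSG00000026478.14, minus strand, chr1:153218922-153332786). It was at 66.0, 65.6 and 53.5 CPM in knockout 1, 2 and 3, against 32.7, 40.4 and 34.2 CPM in wild type 1, 2 and 3. The groups did not overlap, and wild type 1 was at 87.5% of the mean of the other wild-type libraries. It rose by 0.79 on the log2 scale (SE 0.13, adjusted p = 0.00392) and was called in all 17 alternatives, at 0.57 to 1.20. Its partner Lamb1, the beta 1 chain, was at 15.4, 34.3 and 35.2 CPM in the knockout and 2.44, 21.3 and 21.8 CPM in wild type. Those values overlap, and Lamb1 did not pass (log2 fold change 0.90, SE 0.81, adjusted p = 0.425). Without both libraries numbered 1 it was called at 0.67 (adjusted p = 0.00225).

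Col15a1 encodes collagen XV, which is related to collagen XVIII and lies where basement membranes meet interstitial fibrils (ENSMUSG00000028339.17, plus strand, chr4:47208161-47313167). It was at 15.4, 20.6 and 21.7 CPM in knockout 1, 2 and 3, against 1.19, 3.71 and 7.88 CPM in wild type 1, 2 and 3. All knockout values were above all wild-type values. It rose by 2.18 (SE 0.61, adjusted p = 0.0349), and by 1.73 without wild type 1 (adjusted p = 0.0108). Its call ended without wild type 2 (0.123), without any single knockout library (0.0556 to 0.0875), with no low-count filter (0.0820) and with the GC trend removed (0.0832), while the log2 fold change in those fits was 1.84 to 2.32.

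The collagen IV genes Col4a1 and Col4a2, which form the network of basement membranes, lie head to head on chromosome 8. Their first exons overlap by 22 bases on opposite strands, shown on the plus strand because the genes share this start region:
Col4a2 and Col4a1 start overlap, chr8:11312805-11312826 (GRCm38.p6, RefSeq): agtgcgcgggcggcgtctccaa

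Col4a1 was at 81.0, 95.7 and 70.2 CPM in knockout 1, 2 and 3, against 4.99, 28.5 and 64.3 CPM in wild type 1, 2 and 3. Col4a2 was at 44.2, 51.8 and 38.9 CPM in the knockout, against 2.82, 10.7 and 35.3 CPM in wild type. For both, the knockout libraries lay above the wild-type libraries, with wild type 3 close to them. The ratio of Col4a1 to Col4a2 was 1.83, 1.84 and 1.80 in knockout 1, 2 and 3, against 1.77, 2.65 and 1.82 in wild type 1, 2 and 3, so the pair kept a near-constant ratio in 5 of 6 libraries while the level varied. Neither passed the test, at 1.34 (SE 0.83, adjusted p = 0.259) and 1.47 (SE 0.85, adjusted p = 0.228), and Col4a2 was called without wild type 3 (0.0324) and with limma-voom (0.0424). Whether counting used the strand is not given in the sources used here, but the shared bases are few.

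Nid1, the nidogen that links laminin to collagen IV, did not pass and was at 19.3, 38.4 and 26.9 CPM in the knockout and 3.37, 29.6 and 52.3 CPM in wild type. Wild type 1 and 3 lay on either side of all knockout libraries. Hspg2, the perlecan gene, was at 15.3, 26.2 and 22.1 CPM in the knockout and 7.16, 13.4 and 29.8 CPM in wild type, with the same arrangement. Their log2 fold changes were -0.01 and 0.34.

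Among the 10 interstitial collagen genes, none passed the test over all libraries. The median log2 fold change was 0.79, and 1 had an unadjusted p under 0.05, while DESeq2 called 1 and limma-voom 2 as higher. Wild type 1 was the lowest of the 6 libraries for each of them. Col3a1, the chain of collagen III and highest of these genes per kb over all 6 libraries, was at 112.7, 141.3 and 134 CPM in knockout 1, 2 and 3. In wild type 1, 2 and 3 it was at 16.1, 278 and 356 CPM, so wild type 2 and 3 lay above the knockout and wild type 1 far below. Its log2 fold change was -0.74 (SE 0.99, adjusted p = 0.586), and -1.30 without wild type 1 (SE 0.14, adjusted p = 0.00124).

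Col1a1, a chain of collagen I, was at 67.2, 62.2 and 50.5 CPM in knockout 1, 2 and 3, against 2.66, 14.6 and 33.9 CPM in wild type 1, 2 and 3, and the groups did not overlap. The log2 fold change was 1.82 (SE 0.83, adjusted p = 0.142), and 1.31 without wild type 1 (SE 0.38, adjusted p = 0.0473), and it was not called without both libraries numbered 1. The ratio of the Col3a1 level to the Col1a1 level, in CPM not corrected for length, was 1.68, 2.27 and 2.65 in knockout 1, 2 and 3, against 6.06, 19.0 and 10.5 in wild type 1, 2 and 3. All 3 knockout ratios were below all 3 wild-type ratios, wild type 1 included. The other chain of collagen I, Col1a2, was at 67.1, 77.0 and 86.0 CPM in the knockout and 5.37, 73.3 and 110.7 CPM in wild type. The ratio of Col1a1 to Col1a2 was 1.003, 0.808 and 0.587 in the knockout, and 0.495, 0.199 and 0.306 in wild type, again without overlap. These pairs, whose products share fibrils, were chosen after their values were seen, and the ratios carry no test.

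Col12a1, which encodes a collagen on the surface of fibrils, was at 24.4, 40.1 and 27.9 CPM in the knockout and 3.37, 12.9 and 17.5 CPM in wild type. The groups did not overlap, and it missed the threshold (log2 fold change 1.45, SE 0.58, adjusted p = 0.0987). It was called in 6 of 17 alternatives, among them DESeq2 (0.00493) and the fit without wild type 1 (0.0233). Col5a1, a chain of collagen V, which sits inside collagen I fibrils, also did not overlap, with 18.5 to 22.2 CPM in the knockout against 1.47 to 17.4 CPM in wild type, and did not pass (1.12, SE 0.78). Its partner Col5a2 was at 37.3 to 43.1 CPM in the knockout and 2.12 to 53.5 CPM in wild type. The collagen VI chains form beaded filaments, and Col6a1 and Col6a2 kept ratios of 0.939 to 1.17 in the knockout and 0.882 to 1.15 in wild type. Their log2 fold changes were 1.29 and 1.41 with SE of 0.91 and 0.89, and that of Col6a3 was 0.46. Col14a1, another fibril-surface collagen, was at 3.62 to 6.15 CPM in the knockout and 1.74 to 4.69 CPM in wild type.

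**Figure D4:**
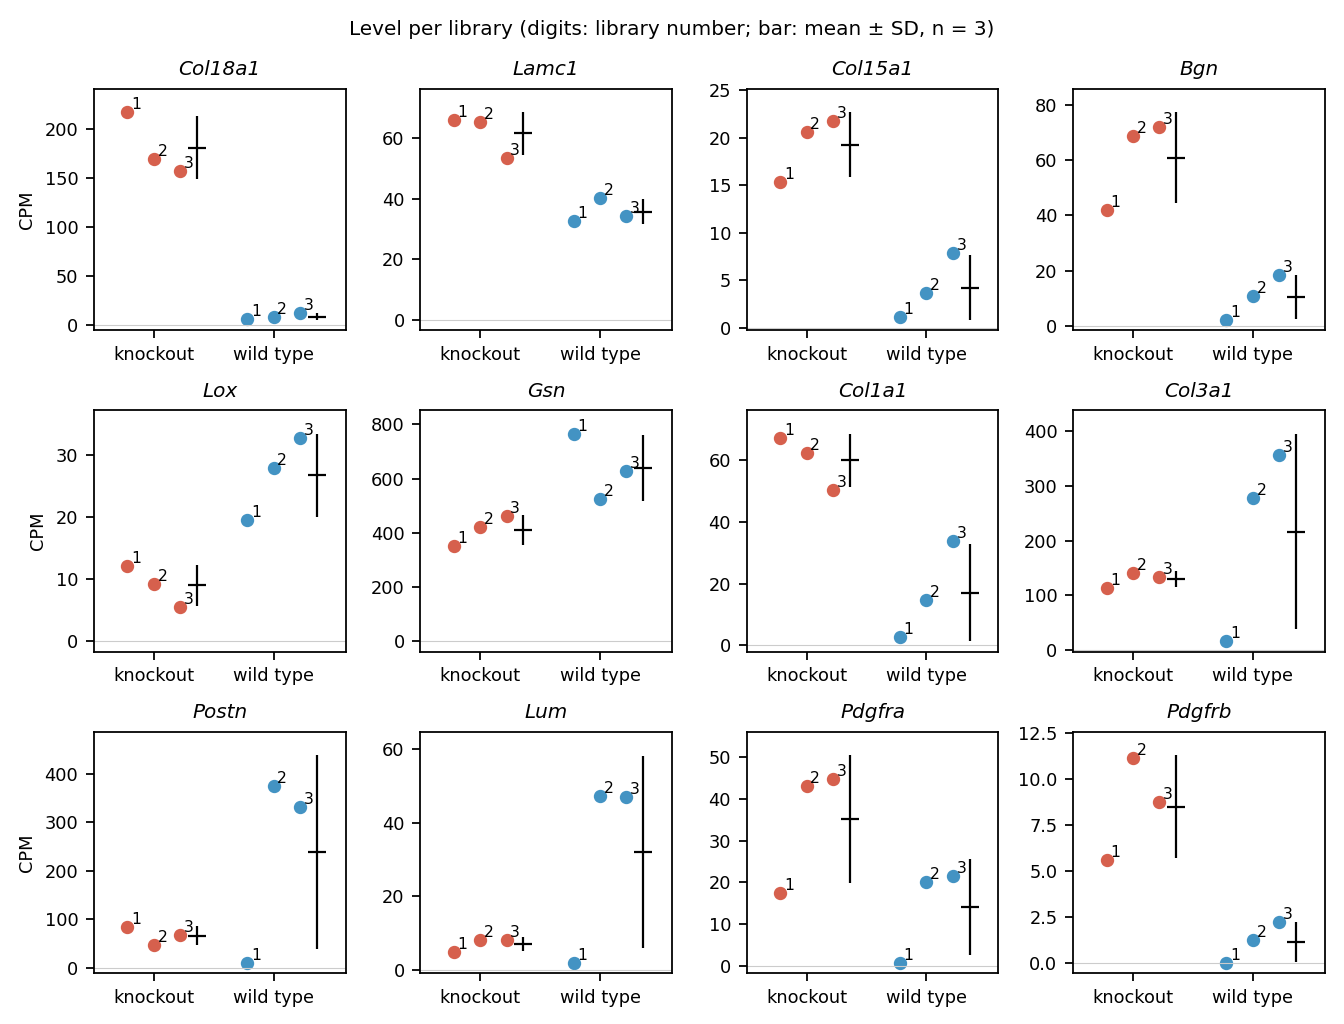
Each panel plots CPM of 1 gene per library on a linear axis, knockout left of wild type, with the library number beside each point and mean ± SD (n = 3) as a bar. Col18a1, Lamc1, Col15a1, Bgn, Col1a1 and Pdgfrb lie higher in all knockout libraries, Lox and Gsn lower, and Col3a1, Postn and Lum lie between wild type 1 and the other wild-type libraries.

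The small proteoglycans of collagen fibrils differed among themselves. Bgn encodes biglycan (ENSMUSG00000031375.17, plus strand, chrX:73483602-73495933). It was at 42.0, 68.5 and 71.9 CPM in knockout 1, 2 and 3, against 2.39, 10.9 and 18.5 CPM in wild type 1, 2 and 3. The groups did not overlap, and Bgn rose by 2.52 (SE 0.71, adjusted p = 0.0417), and by 2.05 without wild type 1 (adjusted p = 0.00934). Its call ended without wild type 2 (0.119), without any single knockout library (0.0629 to 0.108), with no low-count filter (0.0985) and with the GC trend removed (0.0622), while the log2 fold change in those fits was 2.38 to 2.74. Bgn lies on the X chromosome, and its dependence on sex was not tested, since sex and genotype cannot be told apart.

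Lum, the lumican gene, was at 4.796, 7.97 and 8.06 CPM in knockout 1, 2 and 3, against 1.84, 47.4 and 47.0 CPM in wild type 1, 2 and 3. Knockout values lay between wild type 1 and the other wild-type libraries. The log2 fold change was -2.21 (SE 1.08, adjusted p = 0.167), and -2.77 without wild type 1 (SE 0.23, adjusted p = 0.00078). Dcn, the decorin gene and highest of these per kb over all 6 libraries though below Dpt in wild type, was at 118.9, 179.1 and 103.0 CPM in the knockout and 17.8, 145.1 and 147.2 CPM in wild type. Its log2 fold change was 0.37 (SE 0.78), and wild type 2 and 3 fell within the range of the knockout. Dpt, the dermatopontin gene, was at 7.55, 18.8 and 26.2 CPM in the knockout, and 4.07, 65.1 and 63.9 CPM in wild type. It did not pass over all libraries (-1.34, SE 1.02) or without wild type 1 (-1.89, edgeR adjusted p = 0.0501). Without both libraries numbered 1 it was called at -1.54 (SE 0.16, edgeR adjusted p = 0.000249).

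Upstream sequences are shown for Col18a1, Col15a1 and Bgn, 3 of the members that rose, and for Col3a1, which was not called over all libraries, from the RefSeq promoter table (GRCm38.p6). Gsn, which fell, has 3 windows in the table that are not shown. Each gives the 250 bases before the RefSeq start on the strand of the gene, 5′ to 3′, with capitals for the TATA box (spelled TATAAA), the CCAAT box (spelled CCAAT) and the GC box (spelled GGGCGG) on either strand, overlapping matches included:
Col18a1, chr10:77166531-77166780, minus strand: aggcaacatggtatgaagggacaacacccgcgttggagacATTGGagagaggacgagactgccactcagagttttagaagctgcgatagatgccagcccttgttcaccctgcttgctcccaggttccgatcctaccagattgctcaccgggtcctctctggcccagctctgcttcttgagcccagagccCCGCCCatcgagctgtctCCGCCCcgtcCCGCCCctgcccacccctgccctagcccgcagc
Col15a1, chr4:47207762-47208011, plus strand: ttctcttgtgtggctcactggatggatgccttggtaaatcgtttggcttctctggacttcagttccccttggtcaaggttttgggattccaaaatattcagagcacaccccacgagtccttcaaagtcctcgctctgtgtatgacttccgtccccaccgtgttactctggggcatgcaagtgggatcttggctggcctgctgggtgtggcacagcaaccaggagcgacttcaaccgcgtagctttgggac
Bgn, chrX:73483351-73483600, plus strand: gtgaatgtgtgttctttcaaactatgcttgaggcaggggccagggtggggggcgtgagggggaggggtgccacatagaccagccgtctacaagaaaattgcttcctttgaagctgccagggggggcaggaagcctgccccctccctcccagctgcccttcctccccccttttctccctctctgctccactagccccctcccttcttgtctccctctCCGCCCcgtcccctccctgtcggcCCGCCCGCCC
Col3a1, chr1:45311288-45311537, plus strand: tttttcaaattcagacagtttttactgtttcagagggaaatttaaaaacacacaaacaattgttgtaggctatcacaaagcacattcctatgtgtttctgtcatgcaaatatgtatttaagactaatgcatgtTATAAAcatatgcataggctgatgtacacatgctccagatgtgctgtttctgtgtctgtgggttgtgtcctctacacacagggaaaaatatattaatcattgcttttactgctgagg

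The Col18a1 window shown held 3 GC boxes and 1 CCAAT box, the Bgn window 3 GC boxes, the Col3a1 window 1 TATA box, and the Col15a1 window none of the 3 motifs. A second Col18a1 window, at chr10:77113706-77113955 and lying mostly in annotated exons, held none of them either. Of the 40 members, 24 had at least 1 window, with 30 windows in all. GC boxes occurred in 17 of these 30, against 32.7% of 32851 windows in the table. CCAAT boxes occurred in 9 of 30, against 33.8%, and TATA boxes in 2 of 30, against 12.4%. The matches describe letters only, and some genes have several windows.

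Elastic fibre genes did not move together. Of 8, none rose and 1 fell, and the median log2 fold change was 0.06. The gene that fell, Lox, encodes lysyl oxidase, which cross-links collagen and elastin. It was at 12.2, 9.26 and 5.53 CPM in knockout 1, 2 and 3, against 19.5, 27.9 and 32.9 CPM in wild type 1, 2 and 3. The groups did not overlap, and wild type 1 was at 64.3% of the mean of the other wild-type libraries. Lox fell by 1.57 on the log2 scale (SE 0.32, adjusted p = 0.00885) and was called lower in all 17 alternatives, at -2.06 to -1.16. Loxl1, its relative in elastic fibre formation, was at 3.69 to 4.40 CPM in the knockout and 0.326 to 4.35 CPM in wild type, and did not pass (0.81, SE 0.73).

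Fbln1, which encodes a fibulin and had the highest level per kb of this group over all libraries, was at 12.8, 23.0 and 36.5 CPM in the knockout and 20.3, 17.5 and 26.3 CPM in wild type. It was 1 of the few members not low in wild type 1, and the groups overlapped (0.18, SE 0.37). Fbn1, which encodes the microfibril protein fibrillin, was at 3.65 to 7.93 CPM in the knockout and 0.868 to 12.3 CPM in wild type. Eln, the elastin gene, was at 2.55 to 5.49 CPM in the knockout and 0.434 to 9.79 CPM in wild type. The microfibril-associated genes Mfap4 and Mfap5 had log2 fold changes of 1.01 (SE 0.94) and -1.08 (SE 0.87), and Fbln2 of 0.50 (SE 0.38). Without both libraries numbered 1, Mfap5 was called at -1.16 (edgeR adjusted p = 0.0341). Fbn1 shares 20.1% of its exon bases with the opposite-strand gene Gm9913, which had 8 counts in all, against 855 for Fbn1.

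None of the 4 adhesive and matricellular glycoprotein genes passed with edgeR, DESeq2 or limma-voom, and none had an unadjusted p under 0.05. Postn, which encodes periostin, a fibroblast protein that binds collagen, was at 84.8, 46.2 and 68.2 CPM in knockout 1, 2 and 3, against 10.4, 374 and 331 CPM in wild type 1, 2 and 3. Wild type 2 and 3 were far above the knockout and wild type 1 below it. Its log2 fold change was -1.84 (SE 1.16, adjusted p = 0.263), and -2.42 without wild type 1 (SE 0.26, adjusted p = 0.00194). Sparcl1, highest of this group per kb over all 6 libraries though below Sparc in the knockout, and also made by vessel and muscle cells, was at 14.3, 65.1 and 60.7 CPM in the knockout and 15.03, 128.3 and 257 CPM in wild type. Both libraries numbered 1 were low, as for the smooth muscle markers, and without both it was called at -1.63 (adjusted p = 0.0396). Fn1, the fibronectin gene, was at 58.7, 54.8 and 44.7 CPM in the knockout and 2.82, 23.5 and 41.3 CPM in wild type, with no overlap (1.23, SE 0.85, adjusted p = 0.304). Sparc, a collagen-binding protein gene, was at 89.1 to 108.6 CPM in the knockout and 14.7 to 107.1 CPM in wild type.

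Of the chaperone and fibroblast markers, 5 of 6 were tested, none rose and 1 fell. Gsn encodes gelsolin, an actin-severing protein made by fibroblasts and many other cells. It was at 352, 423 and 461 CPM in knockout 1, 2 and 3, against 766, 523 and 630 CPM in wild type 1, 2 and 3. Wild type 1 was the highest of all libraries for Gsn and for no other tested member. Gsn fell by 0.64 on the log2 scale (SE 0.17, adjusted p = 0.0223), and by 0.49 without wild type 1 (adjusted p = 0.0329). The call ended with total counts (-0.22, adjusted p = 0.317), with the 20 most abundant genes left out of library sizes (0.0731) and without knockout 1, knockout 2 or wild type 3 (0.0507 to 0.0668).

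The platelet-derived growth factor receptors mark mesenchymal cells, Pdgfra fibroblasts and Pdgfrb fibroblasts and pericytes. Pdgfrb was at 5.602, 11.2 and 8.76 CPM in knockout 1, 2 and 3, against 0, 1.24 and 2.20 CPM in wild type 1, 2 and 3, which rests on 60 counts over wild type. The groups did not overlap, and Pdgfrb missed the threshold over all libraries (2.89, SE 1.05, adjusted p = 0.0742). Without wild type 1 it was called at 2.30 (SE 0.41, adjusted p = 0.00618). Pdgfra was at 17.4, 43.0 and 44.8 CPM in the knockout and 0.760, 20.1 and 21.5 CPM in wild type, so knockout 1 lay under wild type 2 and 3. It did not pass (1.31, SE 1.04, adjusted p = 0.367), and without both libraries numbered 1 it was called at 1.056 (SE 0.12, adjusted p = 0.000262).

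Serpinh1, the chaperone of procollagen, was at 31.1, 68.5 and 63.6 CPM in the knockout and 3.31, 22.8 and 44.0 CPM in wild type, and did not pass (1.22, SE 0.88). Pi16, a marker of fibroblasts around vessels, was at 0.457 to 0.764 CPM in the knockout and 0 to 2.32 CPM in wild type. It did not pass over all libraries, and without both libraries numbered 1 it was called at -1.835 (edgeR adjusted p = 0.0287). Fap, a protease of activated fibroblasts, had 1, 4 and 1 counts in knockout 1, 2 and 3 and 2, 11 and 14 counts in wild type 1, 2 and 3, and was too low to be tested over all libraries. Without wild type 1 it passed the filter and was called at -2.997 (SE 0.80, adjusted p = 0.0253), on 6 counts in the knockout. In wild type 1, Dcn, Col1a2 and Pdgfra had 327, 99 and 14 counts, while Pdgfrb and Pi16 had 0.

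**Figure D5:**
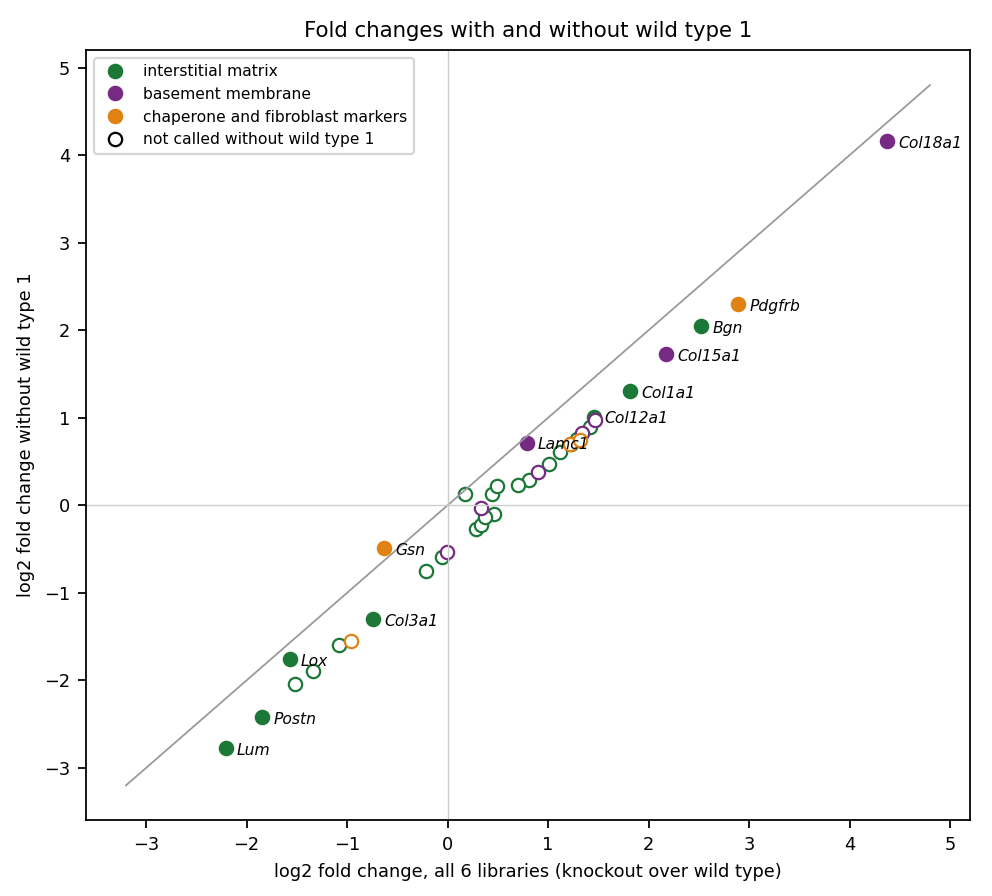
The log2 fold change (knockout over wild type) of 39 members over all 6 libraries (horizontal) is set against that without wild type 1 (vertical), with the line of equal values. Filled and named points were called without wild type 1. Nearly all points lie under the line, Col18a1 stays near it at 4.37 and 4.16, and Col3a1, Postn and Lum sit lower at -1.30, -2.42 and -2.77.

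The order of levels also differed. Gsn was the most abundant member per kb in both genotypes, at 130.4 CPM per kb in the knockout and 202.6 CPM per kb in wild type. Next in the knockout came Sparc at 25.9, Col18a1 at 25.8, Dcn at 22.9 and Serpinh1 at 22.3 CPM per kb, which lie within the SD of Col18a1 of each other. In wild type the next were Sparcl1 at 45.5, Postn at 27.4, Dpt at 25.7 and Col3a1 at 22.1 CPM per kb, each with an SD close to its mean and with a low value in wild type 1.

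Other genes of the same pathways are given by their counts, to be read against the 19.3% of all tested genes that were higher and the 19.2% that were lower. Of 20 genes for collagen folding and processing, 8 rose and none fell, with a median log2 fold change of 1.12, against 0.02 for all tested genes. The 20 include Sparc, which is also a member and was not called. Without wild type 1, 7 were called higher and none lower, where 20.9% of all genes were higher. Without both libraries numbered 1, 13 were higher and none lower, where 23.7% of all genes were higher. Colgalt1, which adds galactose to collagen, was at 48.0 to 53.8 CPM in the knockout and 23.2 to 25.4 CPM in wild type (1.09, SE 0.10, adjusted p = 0.000571). Plod3, a lysyl hydroxylase, rose by 1.70 (SE 0.19), and P4ha2, a subunit of prolyl hydroxylase, by 1.83 (SE 0.23). P4hb and Ppib, folding factors that also act on other proteins, had log2 fold changes of -0.20 and -0.18 and did not pass, and were named after their values were seen.

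Of 21 tested further basement membrane genes, 9 rose and 1 fell, with a median of 0.78. Smoc1, a calcium-binding basement membrane protein gene, rose by 2.06 (SE 0.22). Col7a1, which encodes the anchoring fibril collagen, had 120, 61 and 44 counts in knockout 1, 2 and 3 and 1 count in each wild-type library, and was called higher (adjusted p = 0.000939). Ntn4, a netrin of basement membranes, fell by 0.60 on the log2 scale (SE 0.17). Of 36 further interstitial genes tested, 9 rose and 1 fell, with a median of 0.76. Over all libraries, the share that rose was thus not far from that of all tested genes. The counts were 9 higher and 5 lower without wild type 1. Without both libraries numbered 1, 13 of the 36 were higher and 6 lower, where 23.7% of all genes were higher and 24.3% lower. Ccn1, a matricellular growth regulator, rose by 3.06 (SE 0.46), Ecm1 by 2.42 (SE 0.35) and Ltbp2, a relative of fibrillin, by 3.49 (SE 0.63). Col11a1, a fibrillar collagen gene, fell by 2.87 (SE 0.73), at 0.0424 to 0.261 CPM in the knockout and 0.651 to 1.41 CPM in wild type. Of 23 further fibroblast markers tested, 5 rose and none fell, so the share that rose was near that of all tested genes. The 5 called over all libraries were F3, Cd81, C3, Grem1 and Pdpn, named after their values were seen. Several of these 5 are also made by epithelial cells. Without both libraries numbered 1, 9 of the 23 were higher, where 23.7% of all genes were higher.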

How the data were processed

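Per the labels' protocols, a Nucleospin kit gave the RNA and a TruSeq Stranded mRNA kit the libraries. The authors deposited estimated counts by gene and library, of which 28.8% to 34.2% of those above 0 were not whole. Per the submitters' processing notes the build was mm10. The aligner, counter, annotation and use of strand were not given in the sources used here. Overlapping genes may share reads.

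Counts were rounded. Of 34866 identifiers, 34582 matched GENCODE release M21 (same build), and 284 did not. In R 4.3.3, genes were filtered with filterByExpr in edgeR 4.0.16, which left 14017, scaled with TMM factors and tested with robust quasi-likelihood fits, with Benjamini-Hochberg adjustment over all tested genes at 0.05. The fit was also run on simulated counts with the same dispersion for every gene and no library set apart. That check does not cover a library such as wild type 1. One count is worth 0.0415 to 0.0579 CPM. Levels per kb use the union of exons. Libraries of a genotype differed beyond sampling noise, with chi-square values over their degrees of freedom of 17.1 to 85.4. Alternatives were other scalings and filters, DESeq2 1.42.0, limma-voom (limma 3.58.1), the replicate number as a block, removal of each library's GC trend, and libraries left out. Without 1 library a genotype has 2.

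The members, lists and settings were chosen with earlier results of these data known. Values per library are given for called members, for the member of each role with the highest level per kb, and for others whose call or groups depended on wild type 1. All 5 called fibroblast markers, P4hb, Ppib, Cdh5, Adipoq, Rgs5 and the antral epithelium markers named were chosen after their values were seen. Otherwise, of the related lists, up to 3 called genes with the smallest adjusted p in each direction are named. One gene that this would name is not reported here. One listed symbol, Nov, had no match.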

Additional observations from a re-analysis of the deposited data

How the results depend on the processing

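Col18a1, Lamc1 and Lox kept direction and call in all 17 alternatives. Over the 39 tested members, 579 of the single-gene values kept sign and side of the threshold, 28 passed it newly, 17 no longer passed, and 38 of members called in neither fit changed sign. The 4 members higher and 2 lower became 2 higher with no low-count filter or with the GC trend removed, 8 higher with limma-voom, 8 higher and 10 lower without both libraries numbered 1, and 1 lower with total counts or when library sizes left out the 20 most abundant genes. Leaving out 1 library gave 2 to 7 higher and 1 to 6 lower, with 7 and 6 without wild type 1, and 2 higher without any single knockout library or wild type 2. Interstitial genes higher, 1 in the reported fit, numbered 0 with no low-count filter or the GC trend removed, 2 with total counts, DESeq2 or both libraries numbered 1 removed, and 3 by limma-voom. Without 1 library they numbered 0 to 3 higher and 1 to 4 lower, and without both numbered 1, 7 were lower and the interstitial median was -0.08. Over all genes, total counts gave 5718 higher and 1095 lower, and the same without the 20 top genes in library sizes 4079 and 1714. Leaving out 1 library gave 1600 to 3044 higher and 1721 to 2964 lower. The cause of these changes was not tested.

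Deviations of same-numbered libraries correlated at 0.252, 0.091 and 0.191. Wild type 1 and wild type 2 each correlated best with the knockout library of the same number, and wild type 3 with knockout 2 (0.275). These values do not settle whether the replicate numbers pair the samples. With the replicate number as a block, 7 members were higher and 2 lower, 3 interstitial genes were higher, and 2572 genes were higher and 2497 lower. Genes with few counts, such as Fap, Pi16 and Pdgfrb in wild type, are limited by depth.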
